A study of Mus musculus with 16 samples.

Results

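Aminoacyl-tRNA synthetases were followed across 16 RNA sequencing libraries of the cell line LKR10, which comes from a lung adenocarcinoma of a mouse. The genes were chosen by symbol: the letter or letters that stand for an amino acid followed by "ars", with an optional 1, 2 or l2, plus the phenylalanine enzymes Farsa, Farsb and Fars2. The annotation holds 37 such genes, and all 37 were among the 12321 genes of the expression table and passed the filter on low values. Of these, 20 were counted as cytosolic and 16, whose symbols end in 2, as mitochondrial. Lars2 was kept apart because reads counted to it carry sequence resembling ribosomal RNA. Tarsl2, a threonyl-tRNA synthetase-like enzyme, was counted as cytosolic, as were Kars and Gars, which each make both a cytosolic and a mitochondrial enzyme. Eprs, which charges glutamate and proline, is outside the symbol rule and is described among the partners.

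Each synthetase joins 1 kind of amino acid to its transfer RNA (tRNA), and the ribosome then reads the charged tRNA. The cytosol and the mitochondrial matrix mostly use separate enzymes, all encoded in the nucleus. Several cytosolic enzymes sit in a multi-synthetase complex held together by the scaffold proteins Aimp1, Aimp2 and Eef1e1. When charged tRNA runs low, uncharged tRNA activates the kinase GCN2, which raises translation of the transcription factor ATF4, and many cytosolic synthetase genes are known ATF4 targets.

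All cells carried a pLKO lentiviral short hairpin RNA (shRNA) and had passed a 48 h selection with 4 µg/ml puromycin, followed by 96 h of growth. The hairpin was directed against Ankrd35 or, as control, against GFP, and growth was either suspended in 0.5% methylcellulose (3D) or attached as a monolayer (2D). The groups were 3D shAnkrd35, 3D shGFP, 2D shAnkrd35 and 2D shGFP, with 4 libraries each and 13.8 M to 28.7 M reads per library. The labels do not say that replicates were separate cultures and give no hairpin sequence, so the p-values reflect a spread from library to library that may be technical. Ankrd35 itself was barely detected: a library held 9 to 12 of its reads (3D shAnkrd35), 14 to 17 (3D shGFP), 1 to 7 (2D shAnkrd35) or 2 to 7 (2D shGFP). Per library size its ranges overlapped between hairpins in 3D (0.414 to 0.632 CPM with shAnkrd35, 0.538 to 0.662 with shGFP) and in 2D (0.0495 to 0.323 CPM with shAnkrd35, 0.0805 to 0.355 with shGFP), so these reads give no check of the knockdown. The groups are called by their labels. CPM are reads divided by an effective library size in M, which is a normalized size and not the read total. Of 6 epithelial markers 5 were measured. They summed to 6984 ± 261 CPM (SD) in 3D shAnkrd35 and 6100.0 ± 78.9 in 3D shGFP. In 2D they summed to 7835 ± 636 with shAnkrd35 and 5587 ± 234 with shGFP. Krt8, Krt18 and Krt19 were higher in every shAnkrd35 library than in any shGFP library of the same growth type. Cdh1 went the other way in 2D, at 414 to 479 CPM with shAnkrd35 and 483 to 528 with shGFP, and overlapped in 3D. Epcam was low, at most 0.709 CPM in 2D, where it overlapped. In 3D it had 1.04 to 1.40 CPM with shAnkrd35 and 2.38 to 2.78 with shGFP. Of 6 fibroblast markers 4 were measured, with sums of 11.2 to 43.4 CPM in 3D shAnkrd35, 22.8 to 25.5 in 3D shGFP, 16.7 to 18.4 in 2D shAnkrd35 and 25.7 to 29.2 in 2D shGFP. Of 6 macrophage and lymphocyte markers Cd68 alone was measured, at 4.52 ± 2.23 CPM in 3D shAnkrd35, 4.69 ± 1.03 in 3D shGFP, 4.22 ± 0.94 in 2D shAnkrd35, and 2.14 ± 0.13 in 2D shGFP. The part of these markers in the results on synthetases was not tested. In bulk RNA, fewer cells that express a gene and less RNA of it per cell cannot be told apart.

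The promoters of 4 cytosolic synthetase genes are shown because they hold the 8-base core of the C/EBP-ATF response element, the kind of site through which ATF4 acts on amino acid response genes. The motif searched was TGATGNAA on both strands, where N is any base, in the 250 bases before and 50 bases after the annotated start. Sequences are from RefSeq on GRCm38.p6 and run 5′ to 3′ in the direction of the gene, with the match to the motif or to its reverse complement in capitals. Distances count the annotated start as 0. Tars (threonyl-tRNA synthetase, chr15:11399609-11399908, minus strand) holds it with its first base at -15, and Gars (glycyl-tRNA synthetase, chr6:55037751-55038050, plus strand) at -30. Yars (tyrosyl-tRNA synthetase, chr4:129189653-129189952, plus strand) holds it at 3, and Aars (alanyl-tRNA synthetase, chr8:111033592-111033891, plus strand) holds 2 matches, at -112 and 9.
Tars: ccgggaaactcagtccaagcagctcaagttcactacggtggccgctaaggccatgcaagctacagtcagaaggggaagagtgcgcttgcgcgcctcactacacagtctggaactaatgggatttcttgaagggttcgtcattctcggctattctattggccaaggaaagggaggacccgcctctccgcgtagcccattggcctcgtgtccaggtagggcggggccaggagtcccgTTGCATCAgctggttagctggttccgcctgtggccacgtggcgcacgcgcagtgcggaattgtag
Gars: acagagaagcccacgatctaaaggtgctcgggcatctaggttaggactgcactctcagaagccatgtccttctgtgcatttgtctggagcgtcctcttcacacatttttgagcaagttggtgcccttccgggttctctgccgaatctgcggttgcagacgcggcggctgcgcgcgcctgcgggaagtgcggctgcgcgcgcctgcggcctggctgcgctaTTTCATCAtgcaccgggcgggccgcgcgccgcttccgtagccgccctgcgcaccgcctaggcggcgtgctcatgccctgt
Yars: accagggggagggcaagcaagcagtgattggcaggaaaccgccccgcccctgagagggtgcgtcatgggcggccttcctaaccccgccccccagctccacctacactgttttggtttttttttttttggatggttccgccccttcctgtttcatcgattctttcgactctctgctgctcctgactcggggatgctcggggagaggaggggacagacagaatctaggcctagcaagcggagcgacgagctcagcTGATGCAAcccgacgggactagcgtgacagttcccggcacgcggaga
Aars: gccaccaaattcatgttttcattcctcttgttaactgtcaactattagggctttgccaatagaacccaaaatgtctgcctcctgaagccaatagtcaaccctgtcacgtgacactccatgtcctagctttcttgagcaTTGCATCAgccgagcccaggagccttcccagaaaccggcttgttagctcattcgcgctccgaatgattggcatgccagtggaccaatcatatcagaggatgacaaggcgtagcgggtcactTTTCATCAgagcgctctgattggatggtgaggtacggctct

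Iars (isoleucyl-tRNA synthetase), also cytosolic, holds TTGCATCA at 7. Of the 12 cytosolic synthetase genes with a promoter in the RefSeq table, 5 (41.7%) held the motif, against 0 of the 13 mitochondrial ones. The motif was in 2.61% of the promoters of the 9308 tested genes that the table covers, and in 3.97% of all 32851 promoters of that table. The 7 cytosolic promoters without a match belong to Dars, Farsa, Farsb, Kars, Qars, Sars and Tarsl2. A match is a run of letters and not a measured binding site, and a promoter without one was searched in this window only.

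In 2D shGFP, all cytosolic synthetase mRNAs but that of Tarsl2 were more abundant per kilobase of transcript than the mitochondrial ones. By CPM alone the classes overlapped in that group, where Iars2 averaged 96.9 and Farsb 73.6. Per kilobase of the longest APPRIS principal transcript in GENCODE, levels of 19 of the 20 cytosolic members in 2D shGFP ran from 243 ± 6.72 CPM for Nars, the asparagine enzyme, down to 36.1 ± 1.69 for Farsb, the beta subunit of the cytosolic phenylalanine enzyme (SD, n = 4). Gars followed Nars at 213 ± 9.98, then came Sars, the serine enzyme, at 174 ± 10.5 and Vars, the valine enzyme, at 124 ± 9.02 CPM per kilobase. The next levels lay within their spread of each other: Lars (leucine) had 113 ± 5.34, Aars 109 ± 7.96, Kars (lysine) 106 ± 7.15 and Rars (arginine) 106 ± 4.92. Mitochondrial levels ran from 19.5 ± 0.49 CPM per kilobase for Tars2, the threonine enzyme, to 1.47 ± 0.13 for Mars2, the methionine enzyme. The remaining gene counted as cytosolic, Tarsl2, lay within that range at 8.52 ± 0.44. The lowest group mean of any synthetase was 7.39 CPM, for Pars2 in 3D shGFP.

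Summed over the 20 genes, cytosolic synthetase mRNA took 2874 ± 69.1 CPM in 3D shAnkrd35, against 2653 ± 48.2 in 3D shGFP. In 2D it took 4500 ± 256 CPM with shAnkrd35, against 5686 ± 253 with shGFP. Every 2D library lay above every 3D library, and every 2D shGFP library lay above every 2D shAnkrd35 library. The ratio of the sums was 0.79 for shAnkrd35 against shGFP in 2D and 0.47 for 3D against 2D with shGFP. Summed over the 16 mitochondrial genes, the values were 532 ± 0.47 CPM in 3D shAnkrd35, 474 ± 6.48 in 3D shGFP, 535 ± 10.2 in 2D shAnkrd35 and 458 ± 10.8 in 2D shGFP. Here the libraries separated by hairpin: the 8 labelled shAnkrd35 all lay above the 8 labelled shGFP, and the ratio of 3D to 2D was 1.04 with shGFP.

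**Figure D1:**
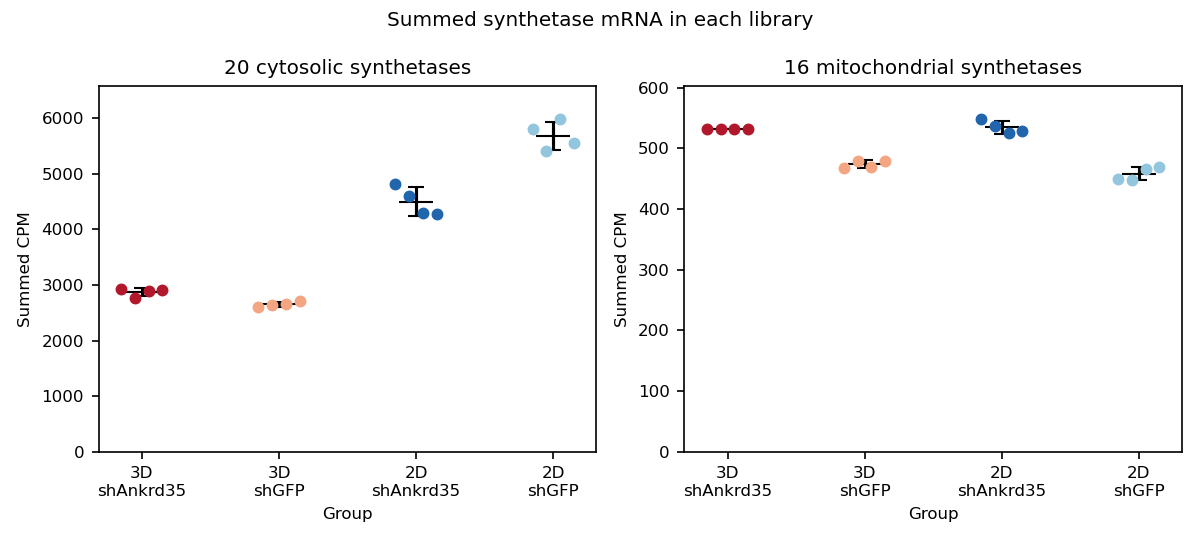
Summed CPM (vertical axis, linear from 0) of the 20 cytosolic synthetases on the left and the 16 mitochondrial ones on the right, in the 4 groups. Points are libraries and bars are the mean ± SD of 4 libraries; the cytosolic sums are lowest in 3D, near 2653 to 2874 CPM, while the mitochondrial sums are higher with shAnkrd35, near 532 to 535 CPM.

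In 2D, libraries labelled shAnkrd35 had less RNA of most cytosolic synthetases than shGFP libraries. Of the 20, 13 fell, 3 rose and 4 did not pass the test, which was limma's moderated test with a Benjamini-Hochberg adjusted p under 0.05. Over all 12320 genes tested, 28.8% fell and 29.0% rose, 57.9% in all. The median log2 fold change was -0.30 over the 20, against 0.007 over all genes. In 11 of the 20 every shAnkrd35 library was below every shGFP library and in 2 every one was above, where 17.5% and 22.3% of all genes were so separated.

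Nars had 410, 403, 383 and 417 CPM in the 2D shAnkrd35 libraries, against 677, 666, 684 and 642 CPM in the 2D shGFP libraries. All 4 shAnkrd35 values lay far below the shGFP values, and the log2 fold change was -0.73 ± 0.04 (SE, adjusted p = 2.08e-10). Wars, which charges tryptophan, had 113, 112, 105 and 106 CPM in 2D shAnkrd35 and 172, 154, 181 and 163 CPM in 2D shGFP. Its groups did not overlap either, and it fell by 0.62 ± 0.05 on the log2 scale (adjusted p = 5.75e-08). Tars had 178, 175, 170 and 178 CPM in 2D shAnkrd35, against 236, 237, 254 and 240 CPM in 2D shGFP. The shAnkrd35 values were again the lower ones without overlap, with a log2 fold change of -0.46 ± 0.04 (adjusted p = 8.01e-08). Gars had 360, 373, 330 and 323 CPM in 2D shAnkrd35 and 522, 479, 531 and 497 CPM in 2D shGFP. Its lowest shGFP library exceeded its highest shAnkrd35 library, and it fell by 0.55 ± 0.05 (adjusted p = 2.28e-07).

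The remaining 9 that fell were Lars at -0.68, Yars at -0.60, Aars at -0.57, Sars at -0.45, Cars (cysteine) at -0.42, Mars (methionine) at -0.37, Rars at -0.23, Tarsl2 at -0.21 and Iars at -0.15 on the log2 scale. In Lars replicate 1 of 2D shAnkrd35 stood above the rest, at 357 CPM beside 245 to 268 CPM. Aars shares 1326 exonic bases with Exosc6 on its own strand. Mars shares 68 exonic bases on the opposite strand with Ddit3, an ATF4 target that fell by 1.59, and whether strand was used in counting is not given in the sources used here. The 3 that rose were Qars, which charges glutamine, at 0.43 ± 0.05 (adjusted p = 2.28e-06), Kars at 0.36 ± 0.05 (adjusted p = 3.12e-05) and Farsa, the alpha subunit of the phenylalanine enzyme, at 0.26 ± 0.08 (adjusted p = 0.011). Qars had 245, 252, 241 and 221 CPM in 2D shAnkrd35, against 181, 165, 186 and 179 CPM in 2D shGFP. Those groups did not overlap, and the shAnkrd35 libraries were the higher ones. Farsa had 65.4, 91.2, 86.0 and 83.7 CPM in 2D shAnkrd35, against 72.8, 63.3, 67.2 and 67.4 CPM in 2D shGFP. Its groups overlapped, with replicate 1 of 2D shAnkrd35 inside the range of 2D shGFP. Dars (aspartate) at 0.11, Farsb at 0.02, Hars (histidine) at 0.03 and Vars at -0.06 did not pass the test.

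**Figure D2:**
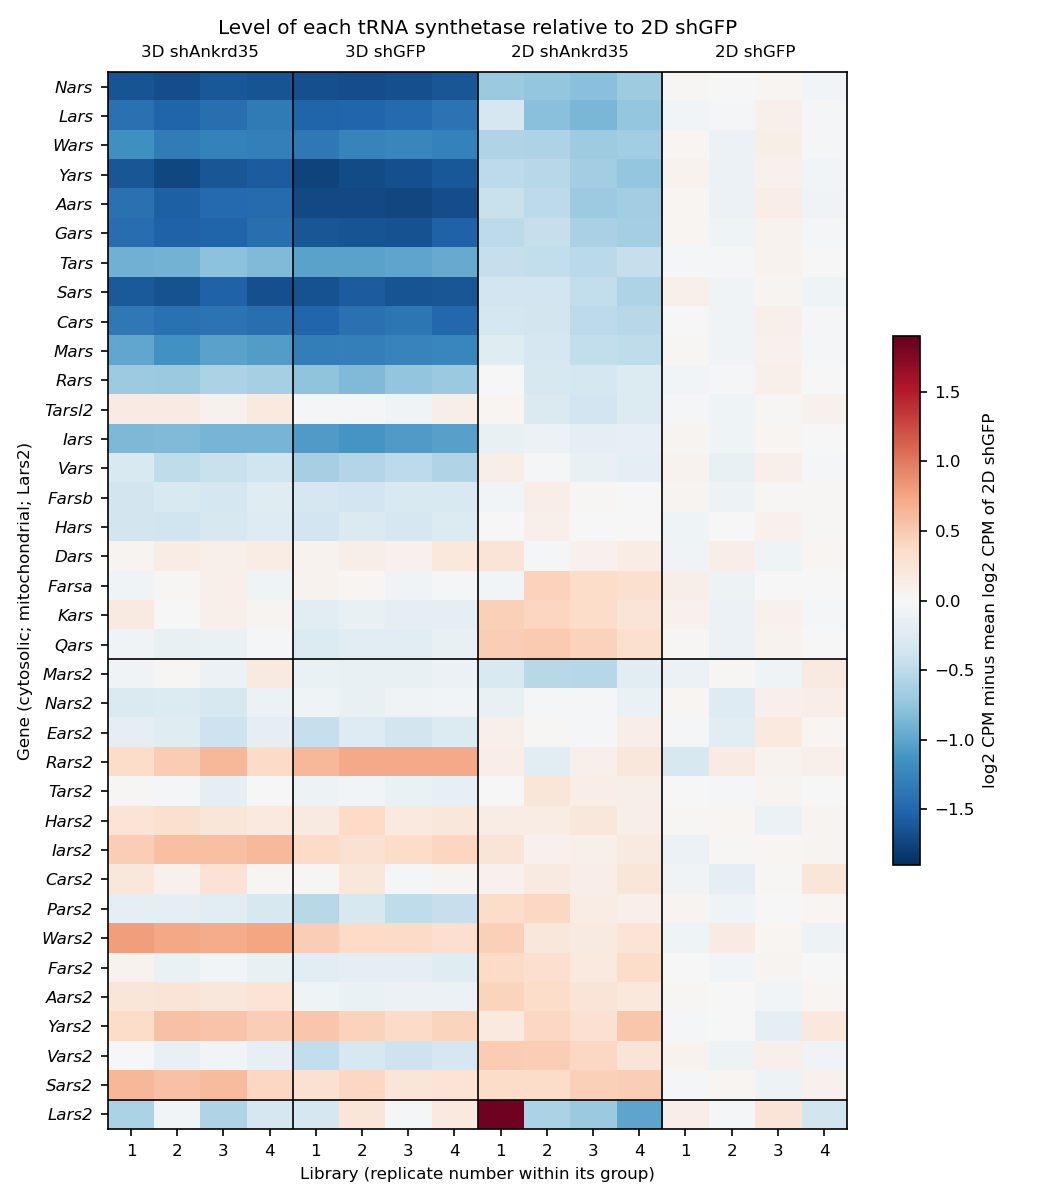
Level of 36 synthetases (vertical axis, sorted by the 2D hairpin effect within the cytosolic genes, the mitochondrial genes and Lars2) in each of the 16 libraries (horizontal axis, in groups of 4). Colour is log2 CPM minus the mean log2 CPM of the 2D shGFP libraries: most cytosolic genes are blue in 2D shAnkrd35 and a deeper blue in both 3D groups, Qars and Kars are red in 2D shAnkrd35, and Lars2 stands out in replicate 1 of 2D shAnkrd35 with 1418 CPM.

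The mitochondrial synthetases went mostly the other way in 2D. Of the 16, 10 rose, 1 fell and 5 did not pass the test, with a median log2 fold change of 0.20. The shares of all genes that rose and fell are those given above for the cytosolic members.

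Vars2, which charges valine, had 93.8, 93.6, 88.6 and 79.7 CPM in 2D shAnkrd35, against 70.9, 63.0, 72.2 and 64.0 CPM in 2D shGFP. The groups did not overlap and it rose by 0.40 ± 0.06 (adjusted p = 6.11e-05). Sars2, the serine enzyme, had 17.9, 17.9, 19.2 and 19.5 CPM in 2D shAnkrd35 and 13.8, 14.4, 13.1 and 14.9 CPM in 2D shGFP. It was likewise higher in every shAnkrd35 library, by 0.40 ± 0.07 (adjusted p = 8.81e-05). Aars2, the alanine enzyme, had 29.1, 27.7, 25.9 and 25.1 CPM in 2D shAnkrd35, against 22.1, 21.7, 20.9 and 22.4 CPM in 2D shGFP. It rose without overlap by 0.30 ± 0.05 (adjusted p = 0.000122).

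Another 6 that rose were Yars2 (tyrosine) at 0.34, Fars2 (phenylalanine) at 0.30, Wars2 (tryptophan) at 0.28, Pars2 (proline) at 0.24, Iars2 (isoleucine) at 0.15 and Hars2 (histidine) at 0.15. Iars2 shares 2034 exonic bases with Rab3gap2 on the opposite strand, and Hars2 shares 195 with Hars. Mars2 had 13.6, 11.6, 11.4 and 14.4 CPM in 2D shAnkrd35, against 15.4, 16.8, 15.8 and 18.7 CPM in 2D shGFP. It was the mitochondrial member that fell, at -0.39 ± 0.09 (adjusted p = 0.00115), and its fold change turned to 0.31 (adjusted p = 0.0252) once a trend of the libraries with gene GC content and length was removed. Cars2 (cysteine) at 0.15, Tars2 at 0.12, Rars2 (arginine) at 0.06, Ears2 (glutamate) at 0.05 and Nars2 (asparagine) at -0.08 did not pass the test. Across 12216 genes the 2D hairpin fold changes followed GC content with a Spearman's rho of 0.40. Median GC content was 50.2% for the cytosolic members, 51.8% for the mitochondrial ones and 50.1% for all genes. With the trend removed, 3 cytosolic members rose and 13 fell, though not all were the same genes as before. Dars then rose (0.51, adjusted p = 1.07e-06), and Hars (-0.13, adjusted p = 0.0467) and Vars (-0.15, adjusted p = 0.0147) fell. Of the mitochondrial members 8 rose and 0 fell in that setting. Of all 12320 genes, 3238 rose and 3676 fell with that trend removed.

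In 3D fewer synthetases differed between hairpins, and 0 of the 36 other than Lars2 fell in libraries labelled shAnkrd35. Of the 20 cytosolic members 5 rose and 15 did not pass the test, and of the 16 mitochondrial members 7 rose and 9 did not. Over all genes 15.0% rose and 14.6% fell in this comparison, 29.7% in all. In 7 cytosolic members every shAnkrd35 library was above every shGFP library and in 0 every one was below, where 18.8% and 19.4% of all genes were so separated. Of the mitochondrial members 8 lay above and 1, Rars2, lay below in that way. Median log2 fold changes were 0.08 for the cytosolic and 0.14 for the mitochondrial members.

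The cytosolic members that rose in 3D had small effects. Iars averaged 163 ± 2.60 CPM in 3D shAnkrd35, against 140 ± 3.63 in 3D shGFP (SD), a log2 fold change of 0.21 ± 0.04 (adjusted p = 0.000492). Kars averaged 225 ± 10.2 in 3D shAnkrd35 and 188 ± 3.13 in 3D shGFP, a rise of 0.26 ± 0.05 (adjusted p = 0.00135). Mars rose by 0.23 ± 0.06 (adjusted p = 0.00595), Aars by 0.23 ± 0.06 (adjusted p = 0.00705) and Tars by 0.14 ± 0.04 (adjusted p = 0.0137). The groups did not overlap in any of these 5. Nars, which had differed most in 2D, had 214, 207, 217 and 214 CPM in 3D shAnkrd35 and 210, 207, 209 and 217 CPM in 3D shGFP. Those groups overlapped, with a log2 fold change of 0.02 ± 0.04 (adjusted p = 0.815). Without replicate 1 of 2D shAnkrd35, whose spread enters the shared fit, 9 cytosolic members rose in 3D. When the 3D groups were fitted alone 10 rose. Calls over all 12320 genes grew as well: 1854 rose in the main fit, 2222 without that replicate and 2477 with the 3D groups alone.

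Among the mitochondrial members, Aars2 had 25.6, 25.8, 25.4 and 26.0 CPM in 3D shAnkrd35, against 20.5, 19.95, 20.2 and 20.1 CPM in 3D shGFP. All 4 shAnkrd35 libraries were higher and close together, and it rose by 0.35 ± 0.05 (adjusted p = 7.58e-05). Wars2 rose by 0.37 ± 0.07 (adjusted p = 0.000606) and Vars2 by 0.29 ± 0.06 (adjusted p = 0.00231). Sars2 at 0.26, Pars2 at 0.22 and Iars2 at 0.21 also rose. Rars2, at -0.24 ± 0.10 (adjusted p = 0.0889), had the lowest value of the 37 apart from Lars2 and did not pass the test. It did pass with only the groups compared (adjusted p = 0.0084), without replicate 1 of 2D shGFP (adjusted p = 0.0397) and without both 2D libraries numbered 1 (adjusted p = 0.0296), and over all alternatives its adjusted p reached 0.246.

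**Figure D3:**
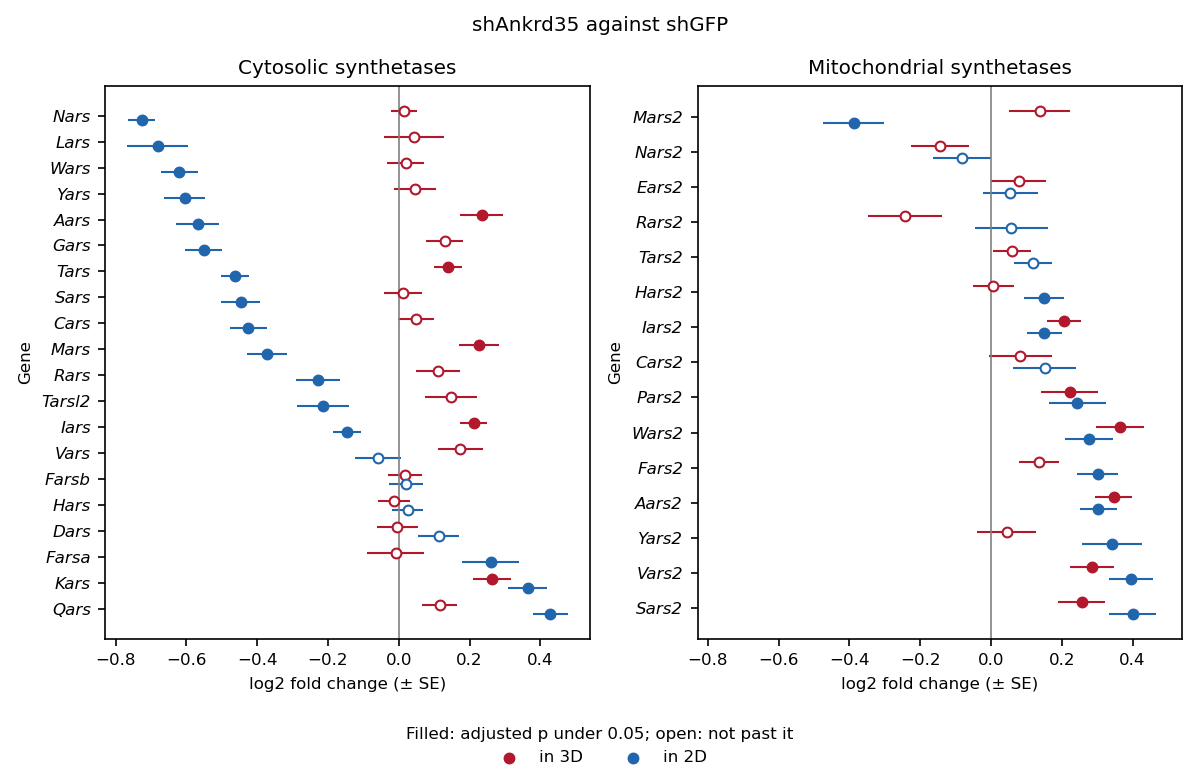
Log2 fold change ± SE of shAnkrd35 against shGFP (horizontal axis) in 3D (red) and in 2D (blue) for the cytosolic genes on the left and 15 mitochondrial genes on the right. Filled points passed an adjusted p of 0.05; on the left the blue points run from -0.73 for Nars to 0.43 for Qars, while the red points lie between -0.01 and 0.26.

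The difference of the hairpin effects between growth types was itself tested, as the 3D effect minus the 2D effect. It was above 0 in 13 of the 20 cytosolic members and below 0 in 1 of them, while 6 did not pass. Over all genes, 17.1% were higher and 18.6% lower by this test, 35.8% in all. The median difference was 0.41 for the cytosolic members and 0.003 for all genes. The 4 members with the smallest p were Nars at 0.74 ± 0.05 (adjusted p = 1.08e-07), Tars at 0.60 ± 0.06 (adjusted p = 1.43e-06), Aars at 0.80 ± 0.09 (adjusted p = 4.97e-06) and Gars at 0.68 ± 0.07 (adjusted p = 5.63e-06). Qars was the exception in the main fit, at -0.31 ± 0.07 (adjusted p = 0.00325). Farsa passed below 0 without replicate 1 of 2D shAnkrd35 (-0.37, adjusted p = 0.000893). Dars passed below 0 with the GC and length trend removed (-0.41, adjusted p = 0.00138).

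Of the mitochondrial members 1 passed this test, with a median difference of -0.07. That member was Mars2, at 0.53 ± 0.12 (adjusted p = 0.004), and it stood at -0.13 (adjusted p = 0.549) with the GC and length trend removed. Yars2 at -0.30 ± 0.12 (adjusted p = 0.0593) and Rars2 at -0.30 ± 0.15 (adjusted p = 0.118) did not pass. Under quantile normalization 1 mitochondrial member was higher and 1 lower by this test, and with the trend removed 0 were higher and 1 was lower. Of all 12320 genes, 2024 were higher and 2413 lower under quantile normalization, and 2336 and 2126 with the trend removed. A second call also appeared on leaving out replicate 4 of 2D shGFP, replicate 1, 2 or 4 of 2D shAnkrd35, replicate 1 of 3D shGFP or replicate 1 of 3D shAnkrd35.

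Growth in methylcellulose went with lower cytosolic synthetase mRNA under both hairpins. With shGFP, 17 of the 20 fell in 3D against 2D, 0 rose and 3 did not pass the test, where 32.1% of all genes fell and 35.2% rose, 67.2% in all. In all 17 the groups did not overlap, where 31.6% of all genes were separated in that direction and 33.3% in the other. The median log2 fold change was -1.04, against 0.028 over all genes. With shAnkrd35, 18 fell, 1 rose and 1 did not pass, where 36.0% of all genes fell and 34.4% rose, 70.4% in all, and the median was -0.58. There 17 members lay lower and 1 higher without overlap, where 29.3% of all genes lay lower and 29.9% higher. The comparison of hairpins in 2D shares the 2D libraries with both growth comparisons, so their values for a gene are not independent.

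Nars averaged 211 ± 4.05 CPM in 3D shGFP and 667 ± 18.5 in 2D shGFP, a log2 fold change of -1.66 ± 0.04 (adjusted p = 7.19e-16). With shAnkrd35 it averaged 213 ± 4.49 CPM in 3D and 403 ± 14.9 in 2D, a log2 fold change of -0.92 ± 0.04 (adjusted p = 2.96e-12). Its 3D libraries overlapped between hairpins and its 2D libraries did not. Sars had 204, 197, 215 and 196 CPM in 3D shAnkrd35, 198, 207, 199 and 201 CPM in 3D shGFP, 481, 483, 449 and 413 CPM in 2D shAnkrd35 and 661, 591, 646 and 589 CPM in 2D shGFP. The 3D groups overlapped each other and lay below both 2D groups. It fell by 1.63 ± 0.05 with shGFP (adjusted p = 1.13e-13) and by 1.17 ± 0.05 with shAnkrd35 (adjusted p = 1.48e-11).

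Yars had 74.9, 70.2, 75.3 and 77.4 CPM in 3D shAnkrd35, 68.4, 71.0, 73.1 and 75.8 CPM in 3D shGFP, 164, 161, 146 and 140 CPM in 2D shAnkrd35 and 243, 215, 246 and 224 CPM in 2D shGFP. The order of its groups was that of Sars, with both 3D groups lowest. Its log2 fold change of 3D against 2D was -1.69 ± 0.06 with shGFP (adjusted p = 1.88e-13) and -1.03 ± 0.06 with shAnkrd35. Gars had 186, 175, 176 and 188 CPM in 3D shAnkrd35 and 164, 162, 161 and 175 CPM in 3D shGFP. Both 3D groups lay below its lowest 2D library, at 323 CPM, and it fell by 1.61 ± 0.05 with shGFP (adjusted p = 6.99e-14) and by 0.93 ± 0.05 with shAnkrd35. Cars fell by 1.45 ± 0.05 with shGFP and by 0.97 ± 0.05 with shAnkrd35 (adjusted p = 6.99e-11). Iars fell by 1.07 ± 0.04 with shGFP and by 0.72 ± 0.04 with shAnkrd35 (adjusted p = 9.52e-11).

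Among the other cytosolic members, the growth effects with shGFP were -1.71 for Aars, -1.47 for Lars, -1.29 for Wars, -1.28 for Mars, -0.996 for Tars, -0.77 for Rars, -0.57 for Vars, -0.32 for Farsb, -0.31 for Hars, -0.21 for Qars and -0.18 for Kars, all past the test. Farsa at 0.00, Tarsl2 at -0.00 and Dars at 0.11 did not pass with shGFP. Dars changed sign to -0.41 (adjusted p = 8.43e-06) once the GC and length trend was removed. With shAnkrd35, Tarsl2 was the member that rose, at 0.36 ± 0.07 (adjusted p = 0.000358), Farsa fell by 0.27, and Dars at -0.00 did not pass. With that trend removed Dars stood at -0.82 with shAnkrd35 (adjusted p = 8.19e-10). Tarsl2 shares 120 exonic bases with Tm2d3 on the same strand.

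The mitochondrial synthetases passed the test of growth type about as often as genes in general. With shGFP 6 of the 16 rose and 5 fell in 3D against 2D, where 35.2% of all genes rose and 32.1% fell. Under quantile normalization 6 rose and 8 fell with shGFP, where 3855 of all 12320 genes rose and 4321 fell. With shAnkrd35 4 rose and 6 fell, where 34.4% of all genes rose and 36.0% fell. With the GC and length trend removed, 7 rose and 5 fell with shAnkrd35, and 8 rose and 4 fell with shGFP. Of all 12320 genes, 4737 rose and 3446 fell with shAnkrd35 in that setting, and 4606 rose and 3724 fell with shGFP. Median log2 fold changes were -0.10 with shGFP and -0.03 with shAnkrd35, and both turned positive, to 0.11 and 0.10, when that trend was removed.

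Iars2 averaged 142 ± 5.93 CPM in 3D shAnkrd35, 123 ± 4.08 in 3D shGFP, 108 ± 5.56 in 2D shAnkrd35 and 96.9 ± 4.71 in 2D shGFP. It rose in 3D by 0.41 ± 0.05 with shAnkrd35 (adjusted p = 1.61e-06) and by 0.35 ± 0.05 with shGFP (adjusted p = 7.91e-06). Wars2 rose by 0.47 ± 0.07 with shAnkrd35 (adjusted p = 1.31e-05) and by 0.38 ± 0.07 with shGFP (adjusted p = 0.000121). Rars2 averaged 18.5 ± 1.67 CPM in 3D shAnkrd35, 21.8 ± 0.63 in 3D shGFP, 14.1 ± 1.74 in 2D shAnkrd35 and 13.5 ± 1.85 in 2D shGFP. It rose by 0.69 ± 0.10 with shGFP (adjusted p = 1.66e-05) and by 0.39 ± 0.10 with shAnkrd35. Vars2 fell by 0.48 ± 0.06 with shAnkrd35 (adjusted p = 3.87e-06) and by 0.37 ± 0.06 with shGFP (adjusted p = 6.23e-05).

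Pars2 at -0.45 and -0.43, Fars2 at -0.37 and -0.20 and Ears2 at -0.30 and -0.32 fell with shAnkrd35 and with shGFP. Yars2 at 0.44, Sars2 at 0.29 and Hars2 at 0.24 rose with shGFP and did not pass with shAnkrd35. Tars2 fell with shAnkrd35 at -0.17, a value that became 0.02 (adjusted p = 0.747) with the GC and length trend removed. Mars2 rose with shAnkrd35 at 0.39, which became -0.90 (adjusted p = 1.16e-06) with that trend removed. Aars2, Cars2 and Nars2 did not pass with either hairpin, and Aars2 stood at 0.23 (adjusted p = 0.0024) with shAnkrd35 and at 0.14 (adjusted p = 0.0405) with shGFP once the trend was removed.

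**Figure D4:**
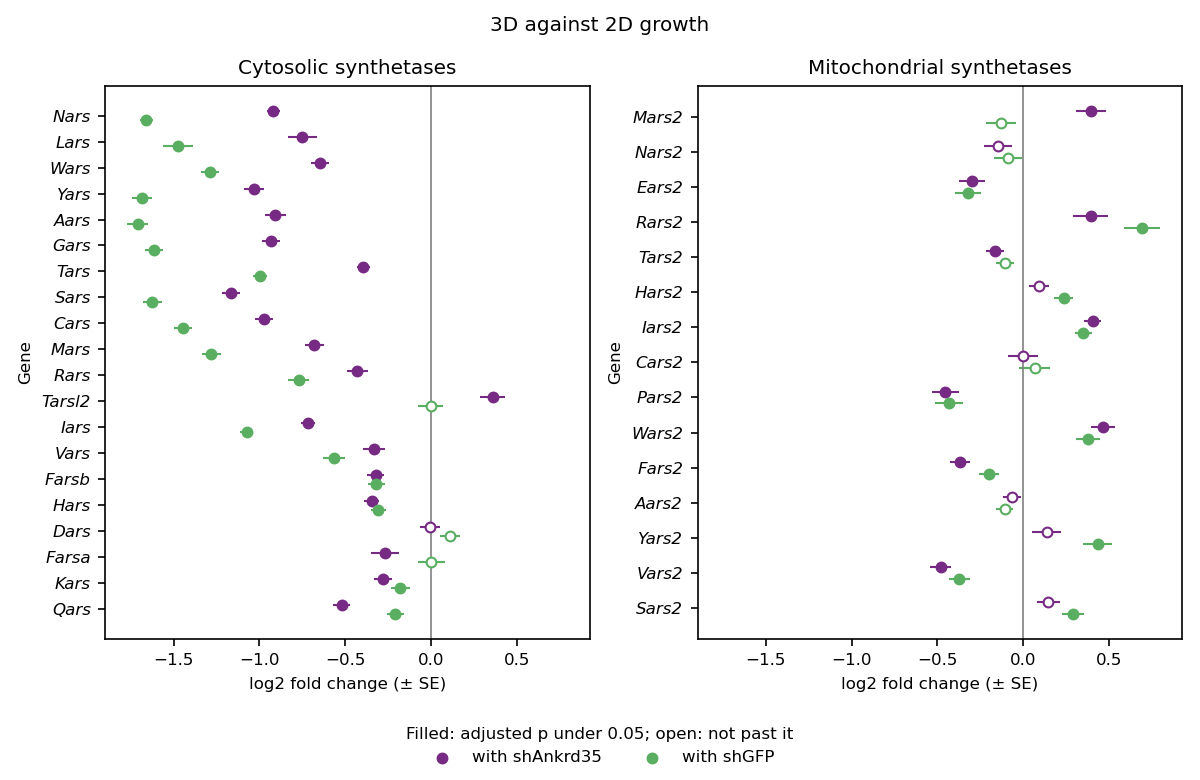
Log2 fold change ± SE of 3D against 2D growth (horizontal axis) with shAnkrd35 (purple) and with shGFP (green) for the cytosolic genes on the left and 15 mitochondrial genes on the right, in the gene order of the hairpin plot. Filled points passed an adjusted p of 0.05; green points reach -1.71 for Aars, and most purple points on the left lie closer to 0, while the mitochondrial points fall on both sides of 0.

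Of the amino acids, 13 have a cytosolic and a mitochondrial gene of the same name root among the members with Lars2 left out. For shAnkrd35 against shGFP in 2D the cytosolic gene had the lower log2 fold change in 12 of the 13 pairs, and the median difference within pairs was -0.58. The exception was Mars with Mars2, at -0.37 and -0.39, and the value of Mars2 is the one that turned to 0.31 with the GC and length trend removed. The widest gaps were for Yars and Yars2 (-0.95), Wars and Wars2 (-0.90) and Aars and Aars2 (-0.87). In 3D the cytosolic gene was the lower in 7 of 13 pairs, with a median difference of -0.02. For 3D against 2D it was the lower in 11 of 13 pairs with shAnkrd35 and in 12 of 13 with shGFP, with median differences of -0.84 and -1.46.

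The 7 cytosolic members of the multi-synthetase complex (Dars, Iars, Kars, Lars, Mars, Qars and Rars) were divided. In 2D 4 of them fell with shAnkrd35 and 2 rose, with a median of -0.15, and of the 13 cytosolic members outside the complex 9 fell and 1 rose, with a median of -0.45. For 3D against 2D with shGFP 6 of the 7 fell, with a median of -0.77, and 11 of the 13 outside fell, with a median of -1.29. Of all genes, 28.8% fell and 29.0% rose in the 2D hairpin comparison, and 32.1% fell in that growth comparison. By catalytic fold, 7 of 9 class I enzymes and 6 of 11 class II enzymes fell with shAnkrd35 in 2D, so both structural classes held members that fell. The 5 genes whose promoters held the motif all fell in 2D with shAnkrd35, from -0.15 for Iars to -0.60 for Yars. Of the 7 with a promoter lacking it, 2 fell, near the 28.8% of all genes, and 3 rose, where 29.0% of all genes did. Of the 8 for which no promoter was given, 6 fell and 0 rose. For 3D against 2D with shGFP, the medians were -1.61 for the 5 with the motif, -0.18 for the 7 lacking it and -1.28 for the 8 not in the table. Sars, without the motif in this window, stood at -1.63 in that comparison, within the range of the 5, from -0.996 to -1.71.

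Lars2, the mitochondrial leucine enzyme (chromosome 9, 123366927 to 123462666, mm10, plus strand, 19 merged exonic blocks), gave no result that could be set beside the others. It had 260, 380, 265 and 317 CPM in 3D shAnkrd35, 316, 462, 386 and 446 CPM in 3D shGFP, 1418, 259, 242 and 197 CPM in 2D shAnkrd35 and 430, 384, 469 and 311 CPM in 2D shGFP. Replicate 1 of 2D shAnkrd35 stood far above every other library, while the other 3 of its group were below all 4 of 2D shGFP. Gm23935, annotated as a microRNA gene, had 2109 CPM in that library and 313, 250 and 239 CPM in the other 3 of its group, against 711, 631, 636 and 444 CPM in 2D shGFP. It was also at 382, 594, 283 and 457 CPM in 3D shAnkrd35, against 529, 753, 681 and 740 CPM in 3D shGFP. With all libraries, Lars2 passed the test in none of the 5 contrasts, with a log2 fold change of -0.11 ± 0.45 (adjusted p = 0.843) in 2D and -0.40 ± 0.45 (adjusted p = 0.564) in 3D for shAnkrd35 against shGFP. The 2D result hung on 1 library: without replicate 1 of 2D shAnkrd35 Lars2 fell by 0.77 by limma (adjusted p = 0.00192). Without both 2D libraries numbered 1 it fell by 0.73 (adjusted p = 0.00719). The part of sequence resembling ribosomal RNA in these values was not tested.

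**Figure D5:**
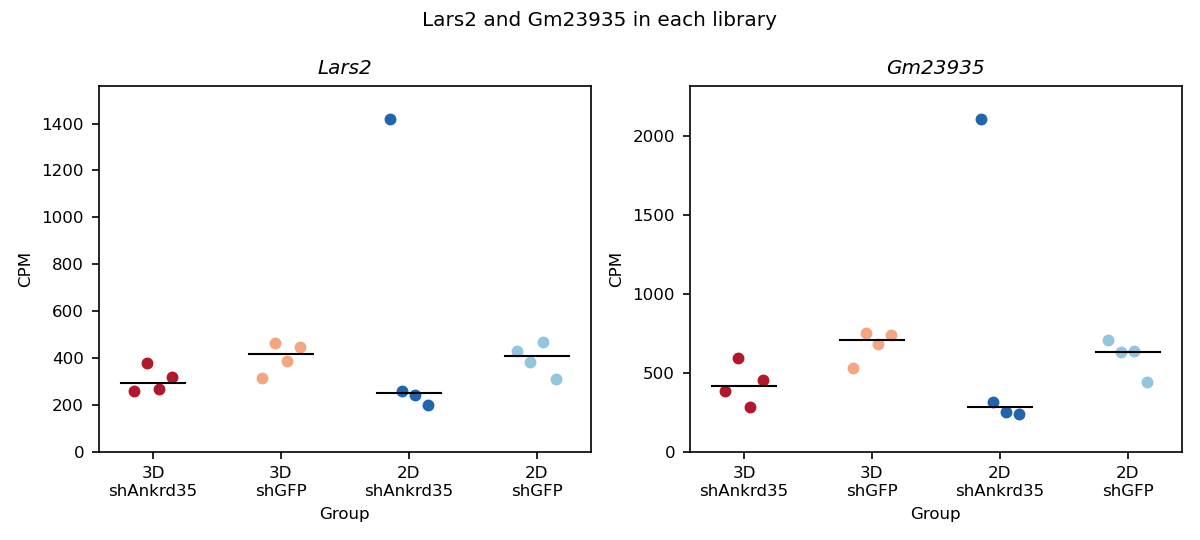
CPM (vertical axes, linear from 0) of Lars2 on the left and Gm23935 on the right in the 4 libraries of each group. Points are libraries and lines are group medians; 1 library of 2D shAnkrd35 stands at 1418 CPM for Lars2 and 2109 CPM for Gm23935, above all others.

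Eprs, the enzyme for glutamate and proline in the multi-synthetase complex, had a lower log2 fold change in 2D than any cytosolic member. It had 390, 292, 280 and 333 CPM in 2D shAnkrd35, against 661, 780, 777 and 785 CPM in 2D shGFP. The groups were far apart, and the log2 fold change was -1.22 ± 0.08 (adjusted p = 7.56e-09). In 3D it averaged 315 ± 17.3 CPM with shAnkrd35 and 312 ± 12.3 with shGFP, a log2 fold change of 0.01 (adjusted p = 0.928), and the difference of the effects was 1.23 ± 0.12 (adjusted p = 2.24e-06). The scaffolds Aimp2 at 0.60 ± 0.10 (adjusted p = 0.000117) and Aimp1 at 0.24 ± 0.05 (adjusted p = 0.000352) rose in 2D. Eef1e1 did not pass the test in 2D and fell by 0.22 in 3D. In 3D against 2D with shGFP Eprs fell by 1.26, Eef1e1 by 0.41 and Aimp1 by 0.29.

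Most genes of the GCN2 and ATF4 amino acid response also fell in the comparisons in which most cytosolic synthetases fell. Of 23 on that list, 19 fell and 2 rose with shAnkrd35 in 2D, with a median of -0.83, where 28.8% of all genes fell and 29.0% rose. In 3D against 2D with shGFP 21 fell and 1 rose, with a median of -1.67, where 32.1% of all genes fell and 35.2% rose. The 2D leaders by p were Trib3, a pseudokinase, at -1.86 ± 0.07 (adjusted p = 6.36e-12), Slc7a5, a transporter of large neutral amino acids, at -1.61 ± 0.08 (adjusted p = 7.82e-11) and Mthfd2, a mitochondrial folate enzyme, at -0.88 ± 0.05 (adjusted p = 7.49e-10). Atf4 itself fell by 0.83 in 2D with shAnkrd35 and by 2.00 in 3D against 2D with shGFP. Ddit3 had 19.6, 29.5, 27.6 and 26.3 CPM in 2D shAnkrd35, against 79.1, 79.6, 78.8 and 69.3 CPM in 2D shGFP. Its groups did not overlap. The 2 that rose in 2D were Eif2ak4, which encodes GCN2, and Ddit4, an inhibitor of mTORC1 signalling. In 3D, 5 of the 23 rose and 6 fell with shAnkrd35, where 15.0% of all genes rose and 14.6% fell. The difference of the effects passed the test in 18 upward and 1 downward, where 17.1% and 18.6% of all genes did.

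Genes that make and deliver tRNA rose and fell in equal numbers in 2D between hairpins and between growth types with shGFP. Of 25 genes for tRNA transcription, maturation and export, 5 rose and 5 fell with shAnkrd35 in 2D, where 29.0% of all genes rose and 28.8% fell. In 3D against 2D with shGFP 8 rose and 8 fell, near the 35.2% and 32.1% of all genes. Xpot, the exportin that carries tRNA out of the nucleus, had 179, 151, 138 and 158 CPM in 2D shAnkrd35, against 276, 285, 295 and 287 CPM in 2D shGFP. No library of the 2 groups overlapped, and it fell by 0.88 ± 0.07 (adjusted p = 2.2e-08). In 3D it had 136, 142, 133 and 157 CPM with shAnkrd35 and 134, 134, 138 and 147 CPM with shGFP, which overlapped. Gtf3c5 at 0.34 and Gtf3c6 at 0.31, both subunits of the polymerase III factor TFIIIC, rose in 2D.

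The 5 cytosolic elongation factors all fell in 3D against 2D, with medians of -0.76 with shAnkrd35 and -0.67 with shGFP, where 36.0% and 32.1% of all genes fell. Eef2, which moves the ribosome along the message, fell by 1.21 ± 0.08 with shGFP (adjusted p = 1.68e-09), and Eef1g, a subunit of the exchange factor for Eef1a1, fell by 0.83 ± 0.05 with shAnkrd35 (adjusted p = 9.49e-10). With shAnkrd35 in 2D none of the 5 fell and 2 rose, which were Eef1b2 at 0.35 and Eef1d at 0.14. In both genes the groups overlapped. Of the 5 mitochondrial elongation factors 4 rose with shAnkrd35 in 2D, where 29.0% of all genes rose, among them Tsfm at 0.55 ± 0.08 (adjusted p = 3.46e-05), Gfm1 at 0.33 ± 0.05 (adjusted p = 9.24e-05) and Tufm, which brings charged tRNA to the mitochondrial ribosome, at 0.31 ± 0.05 (adjusted p = 4.81e-05). Guf1, a mitochondrial translation GTPase, was the one that fell, at -0.55. Its groups overlapped, with 10.5, 7.85, 8.99 and 11.4 CPM in 2D shAnkrd35, against 8.98, 20.5, 13.4 and 15.9 CPM in 2D shGFP.

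In the 3 remaining lists 3 of 4, 3 of 6 and 2 of 4 genes passed the test with shAnkrd35 in 2D, where 57.9% of all genes did. In mitochondria, glutamine is put on its tRNA by transamidation, and of 4 genes for that step and for formylation of methionine Gatb at 0.30 and Qrsl1 at 0.26 rose and Gatc at -0.19 fell. Of 6 measured genes for editing or hydrolysis of charged tRNA, Ptrh2 at 0.28 and Dtd1 at 0.27 rose and Prorsd1 at -0.44 fell. Of 4 genes for selenocysteine, Sepsecs, the enzyme that completes selenocysteine on its tRNA, fell at -0.59 ± 0.07 (adjusted p = 5.1e-06) and Secisbp2 rose at 0.27. In 3D no member of these 3 lists passed the test by limma for shAnkrd35 against shGFP.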

How the data were processed

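Expression was measured in 16 libraries by RNA sequencing of oligo(dT)-selected RNA, with 13.8 M to 28.7 M reads per library. The authors deposited log2 CPM, 1 column for each library, with a prior count of 2 reads on average added before the log, as the values themselves show. The tools named in the submitters' processing notes are STAR 2.5.1b, Trimmomatic 0.38 and edgeR, with the build mm10. For the counter, its annotation and its use of strand, the sources used here give nothing. In every library 100% of values gave whole reads within 0.01 reads once the prior was removed. These reads gave the library totals. Divided by the effective library size in M, they gave the CPM printed as levels. That size was below the read total in every 2D library and above it in every 3D library. In replicate 1 of shGFP it was 24.84 M beside 25.59 M reads in 2D, and 24.56 M beside 23.43 M reads in 3D. Levels and sums compared between 3D and 2D rest on this scaling. Fold changes come from the deposited log2 values, whose prior shrinks those of low genes.

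Genes with at least 1 CPM in at least 4 libraries were tested (12320) with limma 3.58.1 (trend, robust, statmod 1.5.0) in R 4.3.3, as 4 group means with 5 contrasts. P-values were adjusted by Benjamini-Hochberg over all genes tested, and rose and fell mean an adjusted p under 0.05. The steps were tested on simulated data, for the 2D hairpin contrast only and without a GC trend or an outlying library. Changes as small as most hairpin effects on synthetases were not planted, so their recovery was not tested. Coordinates, lengths and GC content came from GENCODE M21 (mm10). For each contrast up to 4 cytosolic and 4 mitochondrial members with the smallest p are given in full, and in the partner lists up to 3. Other partners are named as examples or exceptions, chosen after their values were seen, as was the split by structural class. The values of 1 mitochondrial member are not reported here, though it counts in the numbers and sums. Members and lists were chosen with earlier results of these data known. Alternatives were other scalings, filters and priors, a GC and length trend removed, a replicate block, only the groups compared, and leaving out libraries.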

Additional observations from a re-analysis of the deposited data

Results flagged for a closer look

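In 4 of 144 groups of 4 libraries, 1 library of a synthetase stood apart from the other 3 by Dixon's criterion at the 95% level, where chance gives about 1 in 20. Lars2 had 1418 CPM in replicate 1 of 2D shAnkrd35, beside 197 to 259 CPM in the other 3. Rars2 had 20.8 CPM in replicate 1 of 3D shGFP, beside 22.1 and 22.2 CPM at the ends of the other 3. Hars had 117 CPM in replicate 2 of 2D shAnkrd35, beside 109 to 110. Iars2 had 89.8 CPM in replicate 1 of 2D shGFP, beside 98.8 to 99.97.

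The effect of the hairpin differed between 3D and 2D in 15 of the 36 synthetases reported, Lars2 included, by the test of that difference. Of all genes 35.8% passed that test, 17.1% upward and 18.6% downward. The difference, 3D effect minus 2D effect on the log2 scale, was 0.803 for Aars, 0.742 for Nars, 0.725 for Lars, 0.681 for Gars, 0.652 for Yars, 0.640 for Wars, 0.603 for Tars, 0.600 for Mars, 0.473 for Cars, 0.459 for Sars, 0.363 for Tarsl2, 0.358 for Iars and 0.339 for Rars. It was 0.525 for Mars2 and -0.312 for Qars. Adjusted p-values ran from 1.08e-07 for Nars to 0.0143 for Tarsl2. In 3D the effects of these 15 lay between 0.013 for Sars and 0.235 for Aars, and in 2D between -0.727 for Nars and 0.428 for Qars.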

How the results depend on the processing

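Of 111 calls of single synthetases over the 5 contrasts, 86 held under every alternative run and 25 were lost under at least 1. The number of cytosolic synthetases that rose for shAnkrd35 against shGFP in 3D was 5. It became 10 with only the groups compared in the fit, 9 without both 2D libraries numbered 1 and 8 with the GC and length trend removed, with or without the replicate block. Of all 12320 genes 1854 rose in the main fit. In the same order the alternatives gave 2477, 2318 and 2008, or 1894 with block and trend removal. Leaving out 1 library gave 4 to 9 cytosolic calls in 3D, and 1 to 2 mitochondrial calls for the difference of effects. That last count was 2 under quantile normalization, without both 2D libraries numbered 1 or with Tarsl2 counted as mitochondrial, and 0 with the replicate block and the trend removed. Quantile normalization gave medians of 0.169 (mitochondrial, shAnkrd35 against shGFP in 3D), -0.966 (cytosolic, 3D against 2D with shGFP) and -0.170 and -0.156 (mitochondrial, for growth type with shGFP and shAnkrd35). Removing the GC and length trend, with or without the replicate block, gave -0.502 for the cytosolic median with shAnkrd35 and turned the mitochondrial medians to 0.113 with shGFP and 0.10 with shAnkrd35. Leaving out 1 library gave -0.114 to -0.060 for the mitochondrial median with shGFP. Removing the trend also reversed the sign of 8 fold changes, counting only those that passed the test before or after. For shAnkrd35 against shGFP in 2D they were Hars (-0.131) and Mars2 (0.313). For 3D against 2D they were Aars2 (0.144) and Dars (-0.408) with shGFP, and Aars2 (0.228), Mars2 (-0.904) and Tars2 (0.021) with shAnkrd35. The last was Mars2 (-0.133) for the difference. The cause was not tested.

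Same-numbered replicates did not pair: 8 of 24 correlations of their deviations were over 0.1 and 6 of 16 libraries correlated best with their own number. A replicate block ended 1 of the calls among 185 values, that of Pars2 in 3D (0.22), so that 6 mitochondrial synthetases passed there, and left 16 cytosolic and 11 mitochondrial calls for shAnkrd35 against shGFP in 2D. Count tests on the recovered reads were not run. Every synthetase averaged at least 7.39 CPM in each group, and SEs of the log2 fold changes in 2D were wider for some of low level, such as Rars2 (0.10), than for Nars (0.04).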
